A study of Homo sapiens with 8 samples.

Results

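The ubiquitin ligase and deubiquitinase genes described here are the genes of 9 name families (UBE2, UBE3, TRIM, RNF, CUL, FBX, KLHL, USP and OTUD) that carried an m6A peak in human osteosarcoma cells. They were chosen by gene symbol alone, and 206 of the 8758 genes with a peak matched. RNA of the established osteosarcoma lines U2OS and 143B had been enriched with an antibody against N6-methyladenosine (m6A), a methyl mark on adenosines of messenger RNA. The 4 peak lists came from U2OS with a lentiviral hairpin against METTL14 (shMETTL14), U2OS with a control hairpin (NC), 143B with shMETTL14 and 143B with NC, with 1 list per group. METTL14 is a subunit of the enzyme complex that writes m6A, and the comparison asks which m6A peaks differ between shMETTL14 and NC cells. All 4 groups carry a lentiviral hairpin, and the labels used here do not name the hairpin sequence or say whether the cells are a clone.

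Ubiquitin is attached to proteins by a chain of enzymes in which an E1 activates it, an E2 conjugating enzyme carries it and an E3 ligase selects the substrate. RING ligases bring the loaded E2 to the substrate, HECT ligases take the ubiquitin over first, and cullin ligases are scaffolds that recruit substrates through adaptors such as F-box and KLHL proteins. Deubiquitinases of the USP and OTU classes remove the mark again, and together these enzymes set the stability and signalling of much of the proteome.

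The members held 50 RNF, 37 FBX, 34 TRIM, 32 USP, 20 UBE2, 18 KLHL, 8 CUL, 4 OTUD and 3 UBE3 genes. Not every name is a ubiquitin enzyme. UBE2M conjugates NEDD8, for example, and USP6NL is a GTPase-activating protein. Since the lists repeat a locus for every isoform that covers it, overlapping peaks of a gene within a list were joined to sites. The members had 259 sites in U2OS shMETTL14, 274 in U2OS NC, 302 in 143B shMETTL14 and 296 in 143B NC. All genes together had 10937, 11832, 13041 and 12386 sites in the same order of lists. The lists hold no RNA levels or read counts, so the knockdown could not be checked and the depth is unknown. METTL14 itself had 2 sites in U2OS shMETTL14 and 3 in U2OS NC, and 2 in 143B shMETTL14 and 1 in 143B NC, which do not measure its RNA. The identity of the cell lines could not be checked against marker levels for the same reason.

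An NC site that no shMETTL14 site of the same line overlapped is called lost, an shMETTL14 site that no NC site overlapped is called gained, and any other site is called kept. The 3 words say only what the lists hold, and methylation itself was not compared. In U2OS, 52 of 259 member sites of shMETTL14 cells were gained (20.1%, exact 95% interval 15.4 to 25.5%), where 24.9% of all sites were. In the same line 66 of 274 member sites of NC cells were lost (24.1%, 19.2 to 29.6%), where 31.1% of all sites were. In 143B, 99 of 302 member sites of shMETTL14 cells were gained (32.8%, 27.5 to 38.4%), beside 32.0% of all sites, and 86 of 296 NC sites were lost (29.1%, 24.0 to 34.6%), beside 24.5%. The member shares thus lay near those of all sites, except for the lost share in U2OS, where the interval ended below 31.1%. The intervals cover counting error only. With 1 list per group there is no replicate check, and no test was made between conditions or between members and other genes.

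Most members were listed under both hairpins. In U2OS 132 of the genes had a site under both hairpins, 9 only in the shMETTL14 list and 21 only in the NC list. In 143B 137 genes had a site under both, 29 only in the shMETTL14 list and 29 only in the NC list. These counts were not made over all genes, and the lists differ in size. The U2OS lists held 6092 genes in shMETTL14 and 6426 in NC cells, and the 143B lists 6916 and 6621. The member counts are therefore not read as a trait of the members. In U2OS, 23 of 66 lost member sites (34.85%) lay on genes without a shMETTL14 site, beside 35.8% of all lost sites. In 143B 35 of 86 did (40.7%, 30.2 to 51.8%), beside 29.9%. In U2OS, 12 of 52 gained member sites (23.1%) lay on genes without an NC site, beside 32.6% of all gained sites. In 143B 34 of 99 did (34.3%), beside 31.5%. All 4 lists held a site of 109 of the 206 members (52.9%), beside 51.0% of all genes. TRIM23 and KLHL2 were the only members listed in both NC lists and in neither shMETTL14 list, and RNF180 was the only one with the reverse pattern. These patterns took in 0.971% and 0.485% of the members, beside 1.54% and 1.36% of all genes.

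**Figure D1:**
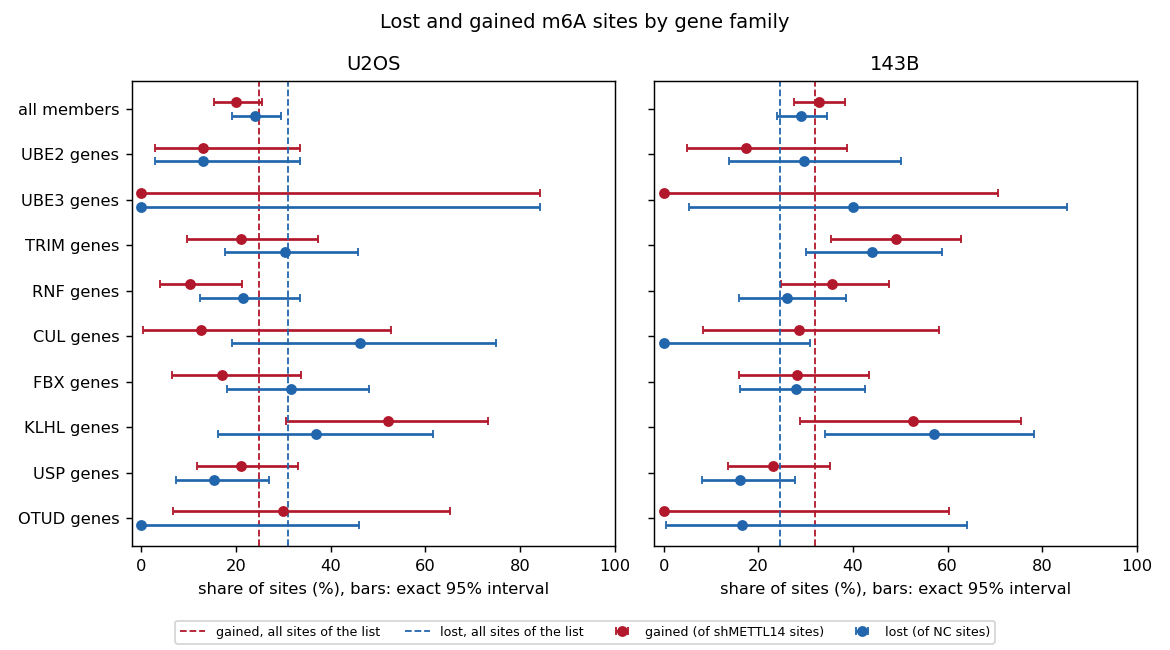
Share of m6A sites gained (red, of the shMETTL14 sites) and lost (blue, of the NC sites) for all members and for each gene family, with U2OS on the left and 143B on the right. Points are shares in percent, bars are exact 95% intervals, and dashed lines are the shares over all sites of the list. KLHL intervals lie wholly above the lines for gained sites in U2OS, 12 of 23, and for lost sites in 143B, 12 of 21.

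The E2 conjugating enzymes had shares that their intervals did not set apart from those of all sites. Of the UBE2 sites, 3 of 23 were gained and 3 of 23 lost in U2OS, and 4 of 23 were gained and 8 of 27 lost in 143B. Each interval held the share of all sites. UBE2O, a large enzyme that acts both as E2 and as E3, kept 3 joined sites in all 4 lists (a joined site links the overlapping sites of the 4 lists). The site in its coding sequence had a fold enrichment of 3.27 in U2OS shMETTL14 and 4.03 in U2OS NC, and of 4.84 in 143B shMETTL14 and 4.86 in 143B NC. The fold enrichment of each peak is the authors' own linear ratio, and values of different lists are set side by side here without a comparison. UBE2Q1, another E2, kept a site that was labelled 3' UTR in U2OS shMETTL14 and stop codon in U2OS NC. The site had fold enrichments of 4.69 in U2OS shMETTL14, 5.23 in U2OS NC, 5.45 in 143B shMETTL14 and 5.22 in 143B NC. The authors' p-values for it were between 5e-61 and 7.2e-10.

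UBE2R2, an E2 of the cullin ligases, lost a site at its stop codon in both lines. On chromosome 9 of build hg19 (33917227 to 33917586, plus strand) it had a fold enrichment of 2.25 in U2OS NC and 1.96 in 143B NC, and neither shMETTL14 list held it. The authors' p-value in U2OS NC was 1.3e-09. Its start codon site was kept in both lines, at 3.9 in U2OS shMETTL14 and 4.79 in U2OS NC, and at 4.04 in 143B shMETTL14 and 5.82 in 143B NC. The gene therefore stayed in every list while 1 of its sites did not. UBE2V2, an inactive E2 variant that pairs with UBE2N, had the gained site of highest fold enrichment of any member in 143B, 18.8 in the 3' UTR. UBE2D4, of the UBE2D group that serves many RING ligases, gained a 3' UTR site in 143B with 14.4. UBE2D1 and UBE2V1 each had a 3' UTR site that was gained in U2OS and lost in 143B.

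UBE2S, the E2 that lengthens chains on substrates of the anaphase-promoting complex, had 2 sites in 143B NC that were lost, with 3.02 at the stop codon. UBE2S was picked after its values were seen.

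The HECT ligases were few. UBE3A, the ligase mutated in Angelman syndrome, kept a stop codon site with fold enrichments of 6.71 in U2OS shMETTL14 and 4.95 in U2OS NC, and of 3.87 in 143B shMETTL14 and 4.15 in 143B NC. It also kept a coding site in all 4 lists, with 9.1 and 5.68 in 143B shMETTL14 and 143B NC. UBE3B was listed once, in the 3' UTR in 143B NC, with 7.17. UBE3C was listed in both 143B lists and in neither U2OS list.

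Among the TRIM genes, RING ligases with B-box and coiled-coil domains, the shares in 143B lay above those of all sites. There 27 of 55 TRIM sites were gained (49.1%, 35.4 to 62.9%) and 22 of 50 lost (44.0%, 30.0 to 58.8%). In U2OS 8 of 38 TRIM sites were gained (21.1%) and 14 of 46 lost (30.4%). The 143B intervals lay above the 32.0% and 24.5% of all sites, while those in U2OS held the share of all sites. The difference between the lines was not tested. Of the 11 joined sites of members lost in both lines, 6 were on TRIM genes. These were 6 of 80 joined TRIM sites (7.5%, 2.80 to 15.6%), which was not tested. Of the 440 joined member sites, 2.5% were lost in both lines, beside 1.93% of all joined sites. The share gained in both lines was 1.82% of member sites, beside 2.26% of all joined sites.

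TRIM28, the corepressor that KRAB zinc finger proteins recruit to chromatin, carried the lost site with the lowest p-value of any member. The coding site on chromosome 19 (59056314 to 59058832, plus strand) had a fold enrichment of 5.29 in 143B NC with an authors' p of 5e-30, and 2.24 in U2OS NC with a p of 0.00017. Neither shMETTL14 list held it. U2OS shMETTL14 listed no TRIM28 site at all, and 143B shMETTL14 listed only a weak 3' UTR site with a fold enrichment of 1.46.

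TRIM23, a ligase with an ARF-type GTPase domain, had its only sites at the stop codon, with 8.13 in U2OS NC and 3.91 in 143B NC. TRIM6 lost 2 sites in both lines. Its stop codon site had 3.69 in U2OS NC and 2.5 in 143B NC, and its 3' UTR site 5.56 in U2OS NC and 3.1 in 143B NC. Between them U2OS shMETTL14 held another 3' UTR site of TRIM6, at 7.63, which began 108 nt beyond the lost stop codon site. TRIM6 and its neighbour TRIM34 have a read-through transcript, so the isoform behind these sites is uncertain.

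TRIM38, a regulator of innate immune signalling, lost a coding site in both lines, with 4.28 in U2OS NC and 3.91 in 143B NC. In 143B shMETTL14 another coding site of TRIM38, with 3.05, lay 66 nt from the lost one. A site in its 3' UTR was lost in 143B, where NC had 13.7, and kept in U2OS, with 5.17 in shMETTL14 and 4.07 in NC cells. TRIM4 lost a 3' UTR site in both lines, with 4.07 in U2OS NC and 13.0 in 143B NC. TRIM32, a ligase mutated in a limb-girdle muscular dystrophy, gained 2 joined sites in both lines. The one in its coding sequence had 2.72 in U2OS shMETTL14 and 4.03 in 143B shMETTL14. The other, around its stop codon, had at most 2.93 in U2OS shMETTL14, where it was listed as 2 sites, and 4.65 in 143B shMETTL14. Each NC list also held 1 TRIM32 site, and both were lost, so no TRIM32 site was kept in either line. The lost site had 3.72 in U2OS NC, 147 nt from a gained site. In 143B NC it was a different stretch with 4.29, 88 nt from a gained site.

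Other TRIM sites were called in opposite directions in the 2 lines or were high in 1 list. TRIM58 had a 3' UTR site with 16.6 in 143B shMETTL14 (gained) and 8.35 in U2OS NC (lost), and gained another 3' UTR site in U2OS with 13.1. TRIM68 had a coding site with 12.0 in U2OS shMETTL14 (gained) and 7.83 in 143B NC (lost). TRIM45 lost a coding site in U2OS with 14.1, and TRIM16 a 5' UTR site with 12.8. TRIM16 and TRIM16L are near-identical copies that can share reads, so their sites are uncertain.

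TRIM44, a member that lacks a RING domain, was picked here for its p-values. Its coding site on chromosome 11 had fold enrichments of 6.01 in U2OS shMETTL14, 6.22 in U2OS NC, 5.47 in 143B shMETTL14 and 8.74 in 143B NC. The authors' p-values were 1e-129, 1e-115, 1e-109 and 2e-63 in the same order. In both U2OS lists this was the member site with the lowest p-value.

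RNF genes, the other RING ligases, gained 6 of 58 sites in U2OS (10.3%, 3.89 to 21.2%), below the 24.9% of all sites, and lost 14 of 65 (21.5%, 12.3 to 33.5%), beside 31.1%. In 143B 26 of 73 were gained (35.6%) and 17 of 65 lost (26.2%), near the 32.0% and 24.5% of all sites. All 4 lists held 34 of the 101 joined RNF sites (33.7%), beside 33.6% of joined member sites and 30.2% of all joined sites. RNF168 and RNF169, both recruited to ubiquitinated chromatin at DNA breaks, had 3 joined sites each in all 4 lists, a number that TRIM33, TRIM52 and TRIM56 also reached and no other TRIM or RNF gene exceeded. The coding site of RNF168 had fold enrichments of 7.83 in U2OS shMETTL14 and 7.7 in U2OS NC, and of 10.2 in 143B shMETTL14 and 10.4 in 143B NC. RNF8, which acts before RNF168 at breaks, gained a coding site in 143B with 3.2 and a p of 3.5e-08, and was picked after its values were seen. Its stretch was covered in both U2OS lists.

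RNF7, the RING subunit that partners CUL5, had the lost site of highest fold enrichment in 143B. The site lay in the 3' UTR on chromosome 3 (141464709 to 141464917, plus strand), with 30.0 and a p of 5.8e-08 in 143B NC. A neighbouring 3' UTR site of RNF7 was kept, with 1.72 in 143B shMETTL14 and 2.96 in 143B NC, and RNF7 was in neither U2OS list. RNF139, an endoplasmic reticulum ligase, lost a 5' UTR site in both lines, with 6.85 in U2OS NC and 15.7 in 143B NC. It kept a coding site and its stop codon site in all 4 lists, the stop codon site with 4.12 in U2OS shMETTL14 and 4.81 in U2OS NC, and 4.71 in 143B shMETTL14 and 4.16 in 143B NC.

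RNF150 and RNF208 also lost sites in 143B, each with 14.3 in 143B NC, and RNF150 kept its 5' UTR site in U2OS with 7.26 in shMETTL14 and 13.8 in NC cells. RNF125, a ligase of antiviral signalling, gained a 3' UTR site in 143B with 16.6. RNF144A, of the RING-between-RING type, gained a 3' UTR site in U2OS with 14.2 and lost a neighbouring one with 6.42, the 2 being 59 nt apart. RNF217 lost 1 of 3 sites in U2OS, with 7.7 in the 3' UTR. RNF207 gained a 3' UTR site in 143B with 14.4. RNF213, a giant ligase linked to moyamoya disease, had 7 joined sites, of which 2 were in all 4 lists. Its coding site on chromosome 17 had 5.66 in U2OS shMETTL14 and 3.45 in U2OS NC, and 4.16 in 143B shMETTL14 and 3.84 in 143B NC. RNF180, listed only under shMETTL14, had 5.45 in U2OS and 6.28 in 143B, at coding sites that did not overlap each other.

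The cullin scaffolds had few sites. Of the CUL sites, 1 of 8 was gained and 6 of 13 lost in U2OS, and 4 of 14 were gained and 0 of 10 lost in 143B. The exact interval of the lost share was 19.2 to 74.9% in U2OS and reached 30.8% in 143B, which held the 31.1% and 24.5% of all sites, and the difference between the lines was not tested. The 6 losses in U2OS were on CUL1, CUL2, CUL3, CUL4B, CUL5 and CUL7.

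CUL5, the scaffold of the SOCS-box ligases, had its only site lost in U2OS, at the stop codon on chromosome 11 (107974939 to 107975178, plus strand). It had 4.3 with a p of 9.1e-10 in U2OS NC, and was listed in 143B with 2.53 in shMETTL14 and 3.15 in NC cells. CUL3, the scaffold that binds KLHL adaptors, lost a coding site in U2OS with 2.27 and kept it in 143B, with 2.24 in shMETTL14 and 3.52 in NC cells. CUL3 kept its start codon site in all 4 lists, with 7.19 in U2OS shMETTL14 and 11.9 in U2OS NC, and 11.3 in 143B shMETTL14 and 20.9 in 143B NC. CUL2 lost a 3' UTR site in U2OS with 3.03 that stayed in 143B, with 2.46 in shMETTL14 and 13.0 in NC cells. For CUL2, CUL3 and CUL5, then, the stretch lost in U2OS was listed in both 143B lists. CUL4B, a scaffold that binds substrates through DDB1, gained a coding site in both lines, with 2.6 in U2OS shMETTL14 and 2.53 in 143B shMETTL14.

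F-box genes, the substrate adaptors of CUL1 ligases, had shares near those of all sites. In U2OS 6 of 35 sites were gained and 13 of 41 lost, and in 143B 13 of 46 were gained and 14 of 50 lost. FBXO11 kept 3 joined sites in all 4 lists. Its start codon site on chromosome 2 (48066597 to 48132932, a span with introns) had 15.3 in U2OS shMETTL14 and 8.84 in U2OS NC, and 17.7 in 143B shMETTL14 and 33.9 in 143B NC. FBXO18, a DNA helicase with an F-box, lost a coding site in both lines, with 2.93 in U2OS NC and 2.3 in 143B NC. In U2OS shMETTL14 another coding site of FBXO18, with 2.18, lay 141 nt from the lost one. FBXL2 had a single site in any list, in the 3' UTR in U2OS NC, and its 16.7 was the highest fold enrichment among lost member sites of that line.

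FBXW8, a partner of CUL7, gained a coding site in 143B with 14.4 and a p of 4.1e-07. FBXO45 lost a 5' UTR site in 143B with 13.0 and kept its stop codon site, with 3.38 in shMETTL14 and 3.52 in NC cells. FBXO41 lost a coding site in U2OS with 12.8, and the same stretch was kept in 143B with 18.8 in shMETTL14 and 20.9 in NC cells. FBXL17 gained a 5' UTR site in U2OS with 10.9 and had no other site.

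KLHL genes, the BTB-domain adaptors of CUL3, had lost and gained shares above those of all sites, although not all beyond counting error. In U2OS 12 of 23 sites were gained (52.2%, 30.6 to 73.2%) and 7 of 19 lost (36.8%, 16.3 to 61.6%). In 143B 10 of 19 were gained (52.6%, 28.9 to 75.6%) and 12 of 21 lost (57.1%, 34.0 to 78.2%). The gained share in U2OS and the lost share in 143B lay with their whole intervals above the 24.9% and 24.5% of all sites. The gained share in 143B and the lost share in U2OS held the 32.0% and 31.1% of all sites within theirs. In all, 5 of 43 joined KLHL sites (11.6%, 3.9 to 25.1%) were in all 4 lists. Members together had 148 of 440 (33.6%), beside 30.2% of all joined sites, and USP genes had 38 of 87 (43.7%). The 23 KLHL sites in U2OS shMETTL14 came from 11 genes, so they are not independent.

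KLHL24, an adaptor mutated in a skin-blistering disorder, lost a stop codon site in both lines. On chromosome 3 (183396940 to 183397266, plus strand) it had 4.38 with a p of 1e-11 in U2OS NC, the lowest p among lost member sites of U2OS, and 9.13 in 143B NC. A 3' UTR site further along KLHL24 was kept in U2OS, with 14.2 in shMETTL14 and 7.7 in NC cells. KLHL2 had 1 site, in the 3' UTR, with 3.27 in U2OS NC and 4.29 in 143B NC, and neither shMETTL14 list held it.

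KLHL23 gained the same 3' UTR stretch in both lines, with 16.3 in U2OS shMETTL14 and 6.37 in 143B shMETTL14. In U2OS NC a 3' UTR site of KLHL23 with 5.46 lay 29 nt beyond it, so the 2 calls there concern neighbouring stretches. The coding site of KLHL23 was in all 4 lists, with 3.98 in U2OS shMETTL14 and 5.48 in U2OS NC, and 11.6 in 143B shMETTL14 and 5.26 in 143B NC. KLHL42 gained a 3' UTR site in both lines, with 5.17 in U2OS shMETTL14 and 15.5 in 143B shMETTL14. KLHL5 gained a coding site in both, with 1.6 in U2OS shMETTL14 and 2.35 in 143B shMETTL14. Among these gains KLHL23 was the highest in U2OS, KLHL42 the highest in 143B and KLHL5 the lowest in both.

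KLHL28 had 5 joined sites, as did several other members, and none in all 4 lists. It gained 3' UTR sites at different positions in the 2 lines, with 12.0 in U2OS shMETTL14 and 14.4 in 143B shMETTL14. KLHL8 gained a stop codon site in U2OS with 12.0, and in 143B a 3' UTR site with 6.32 and a p of 1.5e-10. KLHL26 was listed once, in the coding sequence in 143B NC, with 18.3. KLHL36 lost a 5' UTR site in U2OS with 12.8 and kept its stop codon site in all lists.

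**Figure D2:**
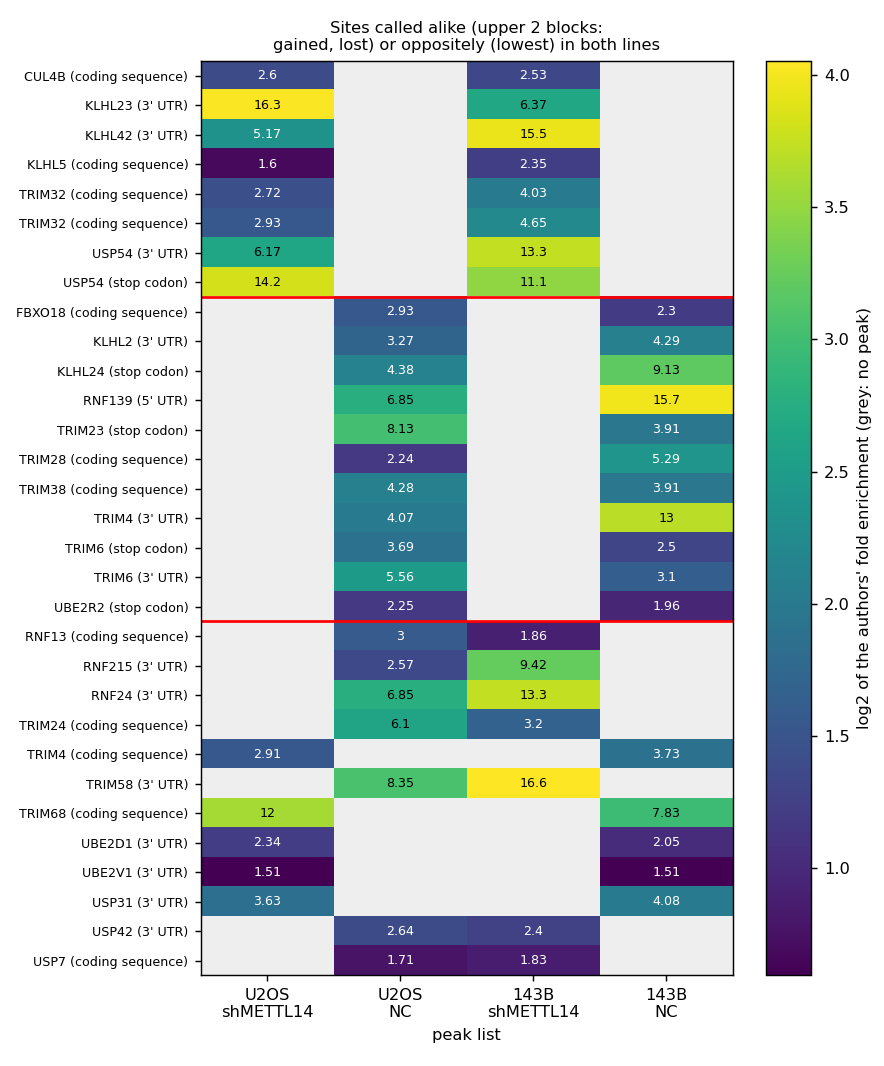
Fold enrichment of the joined sites called in both lines, from top to bottom gained in both, lost in both, and called in opposite directions. Rows are sites with their transcript region, columns are the 4 peak lists, colour is the log2 of the authors' fold enrichment, the printed number is the fold enrichment itself, and grey means that the list held no peak. The 8 sites gained in both lie on 6 genes and the 11 lost in both on 10 genes. They are 1.82% and 2.5% of the joined member sites, beside 2.26% and 1.93% of all joined sites.

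The USP deubiquitinases had 87 joined sites, of which 38 were in all 4 lists (43.7%, 33.1 to 54.7%). The share over all joined sites was 30.2%, and over joined member sites 33.6%. Of the USP sites, 13 of 62 were gained (21.0%, 11.7 to 33.2%) and 9 of 59 lost (15.3%, 7.22 to 27.0%) in U2OS, and 15 of 65 were gained (23.1%, 13.5 to 35.2%) and 10 of 62 lost (16.1%, 8.02 to 27.7%) in 143B. The lost share in U2OS lay below the 31.1% of all sites with its whole interval, and the others held the share of all sites within theirs. No joined USP site was lost in both lines, where 1.93% of all joined sites were. The interval for USP, 0 to 4.15%, held that share.

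USP47, a deubiquitinase of base excision repair, kept 3 joined sites in all 4 lists. Its coding site had 7.37 in U2OS shMETTL14 and 9.9 in U2OS NC, and 6.69 in 143B shMETTL14 and 10.9 in 143B NC. The p-values of this USP47 site were between 1.6e-49 and 6.3e-30. USP53, USP54, USP9X and USP25 also kept 3 each, and the middle site of USP25 had 3.68 in U2OS shMETTL14, 2.92 in U2OS NC, 2.84 in 143B shMETTL14 and 2.35 in 143B NC. USP34 kept 2 of its 6 joined sites in all 4 lists, and its stop codon site had 3.17 in U2OS shMETTL14 and 3.75 in U2OS NC, and 3.37 in 143B shMETTL14 and 3.26 in 143B NC. USP34 also gained a coding site in U2OS with 2.28 and a p of 2.8e-06.

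USP54 had the most joined sites of any member, 9, and gained 2 adjacent ones in both lines. The site at its stop codon had 14.2 in U2OS shMETTL14 and 11.1 in 143B shMETTL14, and the one in the 3' UTR had 6.17 in U2OS shMETTL14 and 13.3 in 143B shMETTL14. Both lay within 1000 nt of a coding site that all 4 lists held, with 3.39 in U2OS shMETTL14 and 4.09 in U2OS NC, and 4.85 in 143B shMETTL14 and 3.7 in 143B NC. The gains of USP54 therefore came at the end of a transcript that was already marked in NC cells.

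USP7, which removes ubiquitin from MDM2 and p53, had a coding site with 1.83 in 143B shMETTL14 (gained) and 1.71 in U2OS NC (lost). Its start codon site was kept, with 18.5 in U2OS shMETTL14 and 21.8 in U2OS NC, and 34.4 in 143B shMETTL14 and 16.3 in 143B NC. USP16, a histone H2A deubiquitinase, and USP8, which acts on endosomal receptors, gained coding sites in 143B with low p-values and were picked after their values were seen. The USP16 sites had 2.68 with a p of 7.9e-11 and 3.32 with a p of 6e-09 in 143B shMETTL14, and the USP8 site had 3.29 with a p of 5.4e-10. Both U2OS lists held these stretches of USP16 and USP8.

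All 4 OTUD genes were listed in both U2OS lists. OTUD3 kept a stop codon site with 5.54 in U2OS shMETTL14 and 6.51 in U2OS NC, and 7.39 in 143B shMETTL14 and 5.74 in 143B NC. OTUD4 kept its stop codon site with 6.66 in U2OS shMETTL14 and 5.01 in U2OS NC, and 6.4 in 143B shMETTL14 and 6.96 in 143B NC. OTUD4 also gained a coding site in U2OS with 4.58 and a p of 2e-09, the lowest p among gained member sites of that line. This stretch was listed in 143B NC with 4.24, at a site that was kept in 143B. When the lists were joined, it became part of the 1 joined site of OTUD4, which all 4 lists held. OTUD1 lost its 143B NC site, which had 17.0, and was listed in both U2OS lists.

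Joined sites in all 4 lists and in 1 list differed in where they lay. Of the 148 joined member sites in all 4 lists, 34 lay at a stop codon (23.0%, 16.5 to 30.6%) and 28 in a 3' UTR (18.9%, 13.0 to 26.2%). Of the 163 listed once, 6 lay at a stop codon (3.68%, 1.36 to 7.84%) and 65 in a 3' UTR (39.9%, 32.3 to 47.8%). By list, 24 of 64 3' UTR sites of U2OS NC were lost (37.5%) but 6 of 44 stop codon sites (13.6%), and among all genes these shares were 38.9% and 12.7%. In 143B NC, 32 of 82 3' UTR sites (39.0%) and 7 of 42 stop codon sites (16.7%) were lost, beside 31.2% and 9.82% of all genes. The lost shares by list thus followed a pattern that the members had in common with all genes. The regions of joined sites were not counted over all genes. Lost member sites of U2OS NC spanned a median of 124.5 nt and kept ones 271 nt. The part of site width in the region labels was not tested.

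The 3' UTR share of member sites lay below that of all sites beyond counting error in U2OS only. The 3' UTR held 23.6% of member sites in U2OS shMETTL14 and 23.4% in U2OS NC, beside 30.7% of all sites in each, and 30.1% in 143B shMETTL14 and 27.7% in 143B NC, beside 34.0% and 32.8%. The member intervals ended at 29.2% in U2OS shMETTL14 and 28.8% in U2OS NC, while those in 143B shMETTL14 and 143B NC held the share of all sites. Coding sequence held 53.7% and 48.5% of member sites in U2OS shMETTL14 and U2OS NC, beside 46.4% and 45.9% of all sites. No test of these shares was made.

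**Figure D3:**
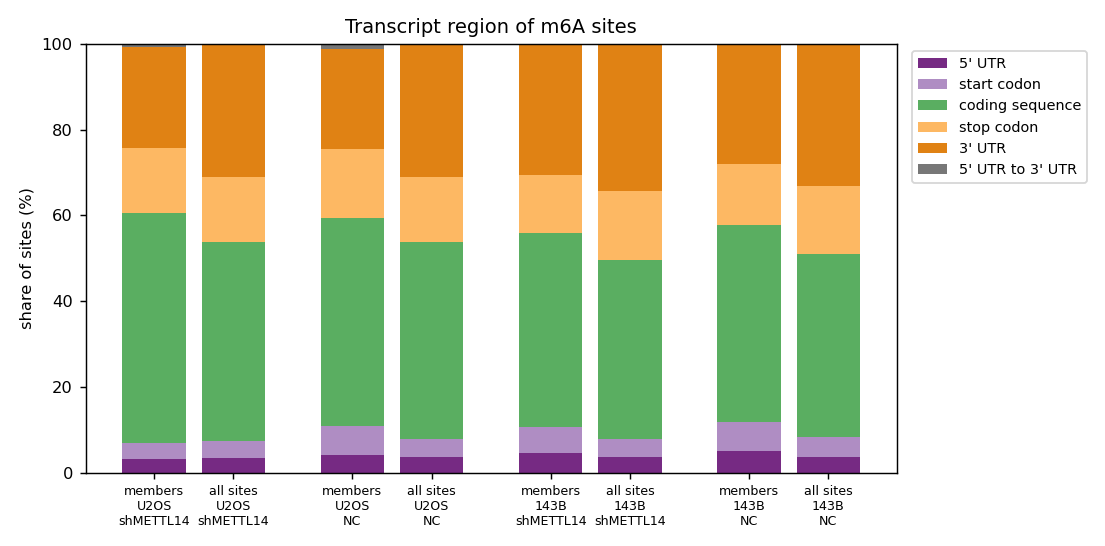
Transcript region of member sites (left bar of each pair) and of all sites (right bar) in the 4 peak lists, as stacked shares in percent of sites. The 3' UTR share of members is the smaller in each pair, with 23.6% of member sites beside 30.7% of all sites in U2OS shMETTL14.

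Lost and gained member sites had higher median p-values than kept ones. The median of the authors' p-value was 0.00052 for gained and 1.8e-07 for kept member sites of U2OS shMETTL14, and 0.00038 for lost and 3.9e-08 for kept sites of U2OS NC. In 143B it was 0.00043 for gained and 2.6e-09 for kept sites of shMETTL14 cells, and 0.00045 for lost and 1.3e-06 for kept sites of NC cells. Gained sites in U2OS spanned a median of 92.5 nt and kept ones 271 nt. All genes had the same pattern, with median p-values of 0.00031 for lost and 6.6e-08 for kept sites in U2OS NC. The part of peak strength in the calls was not tested.

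Fold enrichment did not rank sites the same way. KLHL28, RNF207 and UBE2D4 had the same 14.4 and the same p of 0.00048 at their gained sites in 143B, and KLHL36 and TRIM16 the same 12.8 and 0.0016 at their lost sites in U2OS. High fold enrichments such as these therefore stood on weak p-values. RNF7, with 30.0 and 5.8e-08, was high in both.

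**Figure D4:**
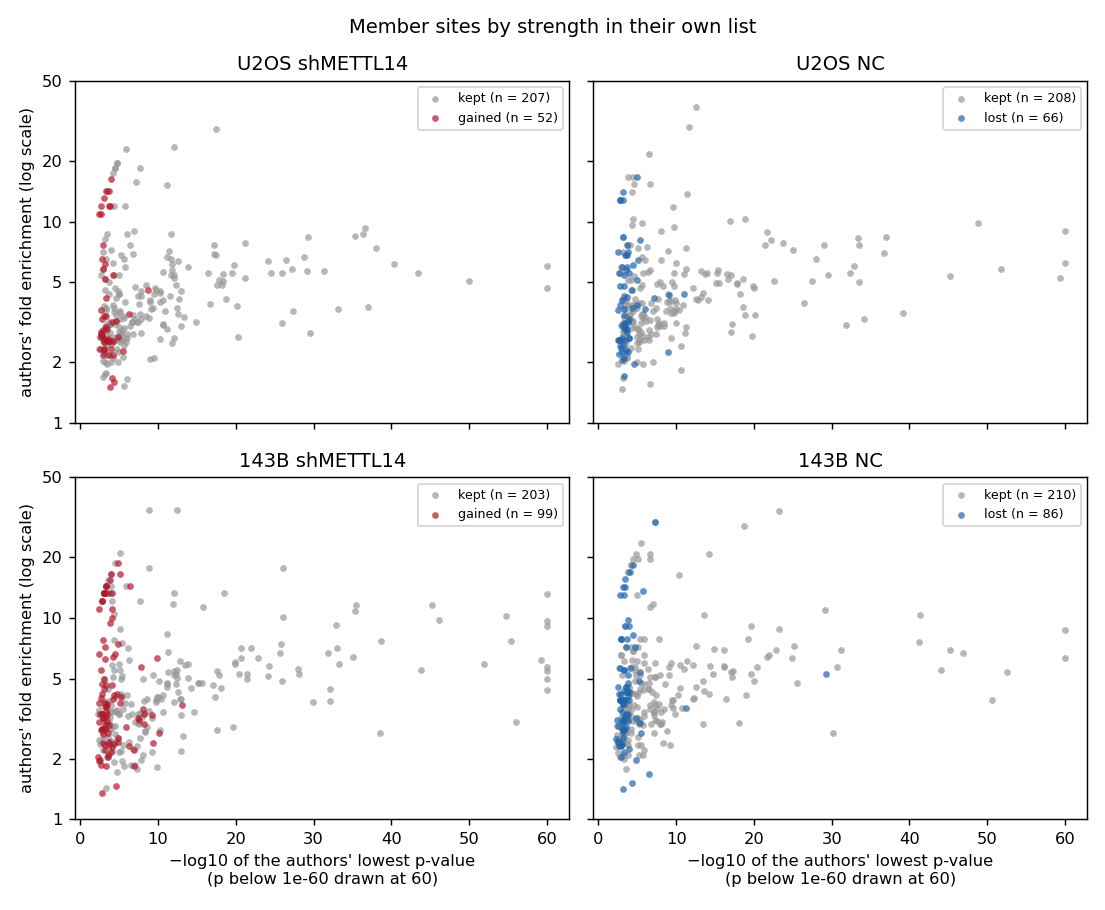
Authors' fold enrichment (vertical, log scale) against −log10 of the authors' p-value (horizontal, values below 1e-60 drawn at 60) for member sites of the 4 peak lists. Grey points are kept sites, red are gained, blue are lost. Most lost and gained sites crowd at the left, and the lost TRIM28 site of 143B NC, with a p of 5e-30, stands apart from them.

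With both requirements set, a p at or below the median of the line's NC list and no partner of any p, few members were left. In U2OS 3 of 128 member sites were gained (2.34%), beside 4.63% of all sites, on OTUD4, KLHL29 and USP34. There 5 of 140 were lost (3.57%), beside 6.34% of all sites, on KLHL24, CUL5, UBE2R2, USP4 and TRIM6. In 143B 17 of 159 were gained (10.7%), beside 10.9%, among them TRIM65, USP16, KLHL8, TRIM8, USP8 and TRIM21. The 9 of 133 lost in 143B (6.77%), beside 5.04%, included sites of TRIM28, RNF10, RNF7, TRIM38, UBE2S, KLHL20 and TRIM5. KLHL24, UBE2R2 and TRIM6 in U2OS and TRIM28 and TRIM38 in 143B are among the genes with a site lost in both lines, although the TRIM38 site here is the one in the 3' UTR. This requirement was added after the data were seen.

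Some lost and gained sites of a gene lay side by side. In U2OS, 13 of 66 lost member sites had an unpartnered shMETTL14 site of the gene within 500 nt (19.7%, 10.9 to 31.3%), beside 9.85% of all lost sites. In 143B 7 of 86 did (8.14%, 3.33 to 16.1%), beside 13.9%. KLHL23, RNF144A and TRIM6 are such cases in U2OS, where a peak in the shMETTL14 list stood beside, and not on, the peak in the NC list.

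Outside the name families, 119 of 164 listed genes of the ubiquitin and proteasome pathway had a site. Of their sites, 31 of 142 were gained (21.8%, 15.3 to 29.5%) and 32 of 146 lost (21.9%, 15.5 to 29.5%) in U2OS, and 49 of 169 were gained (29.0%, 22.3 to 36.5%) and 37 of 169 lost (21.9%, 15.9 to 28.9%) in 143B. As for the members, the lost share in U2OS ended below the 31.1% of all sites. The listed ubiquitin and E1 genes lost 0 of 4 sites in U2OS (0 to 60.2%) and 0 of 5 in 143B (0 to 52.2%). These intervals held the shares of all sites. Proteasome genes lost 4 of 26 sites in U2OS and 7 of 31 in 143B. RING ligases outside the rule lost 17 of 46 sites in U2OS (37.0%) and 19 of 58 in 143B (32.8%). Their intervals, 23.2 to 52.5% and 21.0 to 46.3%, held the 31.1% and 24.5% of all sites. Partners of the cullin ligases and the anaphase-promoting complex lost 3 of 27 sites in U2OS (11.1%, 2.35 to 29.2%), below the 31.1%. In 143B they lost 5 of 35 (14.3%, 4.81 to 30.3%), an interval that held the 24.5%. Other HECT and RING-between-RING ligases lost 3 of 20 in U2OS and 2 of 16 in 143B, and other deubiquitinases 5 of 23 and 4 of 24.

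MDM4, the inhibitor of p53 that is related to MDM2, gained a 3' UTR site in U2OS with 28.3 and a p of 6.6e-08. Its stop codon site was in all 4 lists, with 10.6 in U2OS shMETTL14 and 5.61 in U2OS NC, and 6.54 in 143B shMETTL14 and 6.52 in 143B NC. XIAP, a caspase inhibitor with a RING domain, lost a 3' UTR site in U2OS with 15.4 and gained another in 143B with 19.9. DTX3L gained a 3' UTR site in both lines, with 9.26 in U2OS shMETTL14 and 17.7 in 143B shMETTL14. In U2OS, ZNRF2 gained a start codon site with 18.5 and RAD18, which ubiquitinates PCNA, a 3' UTR site with 16.3. OTUB2, BIRC3 and CBL lost sites there with 14.1, 12.8 and 12.8. In 143B, ZNRF1, NEDD4L, ATXN3 and ANAPC2 lost sites with 18.3, 17.0, 13.0 and 11.7, and MYLIP and HERC3 gained sites with 17.7 and 16.6.

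The 2 lines also differed in which members they listed. Both U2OS lists and neither 143B list held 7 members, FBXL14, FBXO10, FBXO2, FBXO9, TRIM22, UBE2J1 and USP51. Both 143B lists and neither U2OS list held 13, FBXO32, FBXO43, FBXO45, KLHL13, KLHL17, RNF114, RNF167, RNF185, RNF7, TRIM8, UBE2D2, UBE2H and UBE3C. The same count over all genes was not made. By joined site, 17 of 440 member sites (3.86%) were in both U2OS lists only, beside 4.31% of all joined sites. In both 143B lists only were 26 of 440 (5.91%), beside 7.23% of all joined sites. The member intervals, 2.27 to 6.11% and 3.90 to 8.54%, held those shares, so by joined site the members did not stand apart. FBXO32, the muscle atrophy ligase atrogin-1, had 12.2 in 143B shMETTL14 and 7.17 in 143B NC. FBXO43, an inhibitor of the anaphase-promoting complex, had 3.21 in 143B shMETTL14 and 30.0 in 143B NC. Whether a gene outside a list lacked the mark or lacked RNA cannot be told apart from peak lists.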

How the data were processed

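MeRIP-seq peak lists of 4 immunoprecipitated libraries were used, and the 4 input libraries were not analysed on their own. Nothing in the headers says what the ratio is taken over. The submitters' processing notes name HISAT2, Trimmomatic, FastQC 0.11.5 and the human build GRCh37 (hg19). Annotation, threshold and peak caller were not given in the sources used here. Peaks carry a fold enrichment, a linear ratio deposited by the authors, and a p-value deposited by the authors; the largest p-values in the lists are between 0.005 and 0.0062. The lists carry no counts, so depth and its precision are unknown. Groups were taken from the sample titles, and coordinates are printed from 1.

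Members are genes whose symbol begins with 1 of the 9 family names as the rule writes them. Peaks of a gene on the same strand whose blocks overlap by at least 1 bp were joined to sites, which carry the highest fold enrichment and lowest p-value of their peaks. The region of a site or joined site is that of its peak with the lowest p-value. Shares carry exact Clopper-Pearson 95% intervals, which treat sites as independent. Members and gene lists were chosen with earlier results of these data known. The text names, per line, the 8 lost and 8 gained members of highest fold enrichment, members called alike in both lines, those with most sites in all 4 lists by family, the 5 with most joined sites (places 4 and 5 taken by name from 8 members tied at 5 sites), and the 4 lost and 4 gained pathway genes of highest fold enrichment. Members named from the strict calls, members seen in 1 line only and those so marked were chosen after their values were seen. Alternatives changed the overlap, the unit, the peaks used, the names and the use of strand. Results on 1 member are not reported here, although it stays in the counts. The overlap step was tested on simulated data. No sequence is printed, because a genome of this build was not used. The software was matplotlib 3.10.9, scipy 1.17.1, pandas 2.3.3 and numpy 2.4.6 under Python 3.11.15.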

Additional observations from a re-analysis of the deposited data

Results flagged for a closer look

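In 12 joined sites the lines went in opposite directions: the site was listed under only 1 hairpin in each line, and the hairpin differed. With 1 list per group the difference was not tested, and the 12 sites make up a small share of the 440 joined member sites. Lost in U2OS and gained in 143B were 1.59% of member sites, beside 2.43% of all joined sites. The reverse held for 1.14%, beside 1.05%. The pattern is thus one that all genes had too. All values are the authors' fold enrichments.

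Gained in 143B and lost in U2OS were 7 sites. RNF13 had 1.86 in 143B shMETTL14 and 3.0 in U2OS NC. RNF215 had 9.42 in 143B shMETTL14 and 2.57 in U2OS NC, and RNF24 had 13.3 in 143B shMETTL14 and 6.85 in U2OS NC. TRIM24 had 3.2 in 143B shMETTL14 and 6.1 in U2OS NC, and these 2 peaks overlap only at position 138213872. TRIM58 had 16.6 in 143B shMETTL14 and 8.35 in U2OS NC. USP42 had 2.4 in 143B shMETTL14 and 2.64 in U2OS NC. The USP7 values were 1.83 in 143B shMETTL14 and 1.71 in U2OS NC.

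Gained in U2OS and lost in 143B were 5 sites. TRIM4 had 2.91 in U2OS shMETTL14 and 3.73 in 143B NC. TRIM68 had 12.0 in U2OS shMETTL14 and 7.83 in 143B NC. UBE2D1 had 2.34 in U2OS shMETTL14 and 2.05 in 143B NC. The values of UBE2V1 were 1.51 in both lists. USP31 had 3.63 in U2OS shMETTL14 and 4.08 in 143B NC.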

How the results depend on the processing

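In the order U2OS lost, U2OS gained, 143B lost, 143B gained, counting genes in place of sites gave 13.7%, 6.38%, 17.5% and 17.5%, since a gene counts only when every site is gone. Keeping peaks at or above the median fold enrichment of each list gave 37.9%, 28.8%, 42.7% and 44.6%, where sites and their possible partners are both fewer. Keeping peaks whose p-value did not exceed the NC median gave 15.8% for 143B lost and left the other 3 shares inside their intervals. For the gene, fold enrichment and p-value settings, the shares over all genes or sites were not computed. Strict calls against the full partner list, chosen after seeing the data, gave 3.57%, 2.34%, 6.77% and 10.7%. All sites gave 6.34%, 4.63%, 5.04% and 10.9% there, and each member interval held that share. The U2OS lost interval, 1.17 to 8.14%, was thus no longer below the share of all sites. Requiring 50% of the shorter site, allowing 100 bp, counting each listed peak, leaving out other names and ignoring strand kept the 4 shares inside the main intervals. No paired analysis was possible because each group has 1 list and no test was made. No replicate could be left out for the same reason.

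Depth is unknown, so a site outside a list is not shown to be unmethylated. Changes in RNA level, peak calling near the threshold and methylation cannot be told apart from the lists.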
